A study of Mus musculus with 12 samples.

Results

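The inflammasome genes followed here are 10 genes picked by symbol from the 52459 genes of the count tables: the sensors *Nlrp3*, *Aim2*, *Naip2* and *Naip5*, the adaptor *Pycard*, the caspases *Casp1* and *Casp4*, and the effectors *Gsdmd*, *Il18* and *Panx1*. No expression value entered the choice by rule, although earlier results of these data were known. All 10 genes passed the filter on low counts in every comparison, some of them only through the group with the higher level.

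RNA came from whole cerebellum (Cb) and from forebrain/midbrain (F/M) of male mice aged 4 months that either lacked *Tpp1*, the gene of a lysosomal peptidase (*Tpp1*-/-, T), or were wild type siblings (N). The mutant carries an allele disrupted by gene targeting, is kept by crosses of heterozygotes and serves as a model of classical late infantile neuronal ceroid lipofuscinosis. Each of the 4 groups (Cb-N, Cb-T, F/M-N and F/M-T) had 3 libraries, 12 in all, with 21428379 to 24458189 counts each. Levels are given as CPM (counts scaled to a common library size, with TMM factors), and 3 counts equalled 0.121 to 0.139 CPM, a floor that covers counting error only. The methods describe RNA of both areas from 3 mice of each genotype, but no source says which Cb and F/M libraries share a mouse, so p-values measure the spread between these libraries. A gene was a differentially expressed gene (DEG) when edgeR's quasi-likelihood test gave an adjusted p (FDR) below 0.1 and the change reached 1.5-fold, the limits the study used. The study further kept only genes found by more than a single method, which was not required here.

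An inflammasome is a multiprotein platform in the cytosol on which a sensor, once it meets a microbial product or a sign of cell damage, recruits the adaptor ASC (encoded by *Pycard*) and caspase-1. Active caspase-1 cuts the precursors of interleukin-1 beta and interleukin-18 into their secreted forms and cuts gasdermin D, whose fragment opens pores in the plasma membrane. Mouse caspase-11 (encoded by *Casp4*) binds bacterial lipopolysaccharide directly and also cuts gasdermin D, and in the brain microglia are regarded as the main cells that assemble inflammasomes.

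*Tpp1* itself matched the labels of all libraries: the Cb-N range was 112 to 114 CPM and the Cb-T range 28 to 31.1 CPM, beside 87.8 to 94.4 CPM (F/M-N) and 21.8 to 23.9 CPM (F/M-T). Among 20 markers of microglia, 17 were called higher in T than N in Cb (8.54% of all genes tested were) and 10 in F/M (2.63% of all genes), with a median log2 fold change of 1.74 (0.31 to 3.27) and 0.58 (-0.06 to 1.38). Their summed level ranged over 233 to 245 CPM among Cb-N libraries, 859 to 871 among Cb-T, 669 to 691 among F/M-N and 1047 to 1066 among F/M-T, and no marker was at 0 in any group. Of the border macrophage and monocyte markers tested, 4 of 8 were called higher in Cb, with log2 fold changes of up to 1.87. In F/M, 1 of 9 was called higher. The summed level of this list was 18.9 to 21.2 CPM (Cb-N) and 27.4 to 29.2 CPM (Cb-T). Lymphocyte markers, 10 in all, summed to 0.621 to 0.78 CPM (Cb-N) and 1.04 to 1.93 CPM (Cb-T). Their sums for F/M were 7.92 to 9.46 CPM (F/M-N) and 9.12 to 10.4 CPM (F/M-T). Most of that was *Cd4*, at mean levels of 7.87 (F/M-N) and 8.57 CPM (F/M-T). Each other lymphocyte marker had F/M means of at most 0.177 CPM, so the gap between areas in these sums rests on *Cd4*. The Cb-T libraries also stood apart in 4 *Hox* genes (*Hoxb5*, *Hoxb6*, *Hoxc4* and *Hoxc5*), which are active in the hindbrain and spinal cord behind the cerebellum: their sum was 4.35 to 5.57 CPM in Cb-T, and they had no read in Cb-N. Cerebellar markers summed to 7407 to 7502 CPM (Cb-N) and 6413 to 6474 CPM (Cb-T), and 2 of the 6 forebrain/midbrain markers tested in Cb were called higher in T. What part these differences have in the results on Cb was not tested, and in bulk tissue fewer or more cells of a type cannot be told apart from less or more RNA per cell.

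*Naip2* and *Naip5* are neighbouring copies of 1 ancestral gene, and their sequences are shown because reads of 50 bases can fit both. Of the 50-base stretches in *Naip2* transcripts, 19.1% also occur in another gene, and in *Naip5* transcripts 36.9% do, 22.3% in *Naip6* alone. The longest coding run common to *Naip2* and *Naip5* covers 140 bases. The window below spans the last 25 bases of that run and the 25 after it (GRCm38, minus strand, chr13:100161617-100161666 in exon 10 of *Naip2* and chr13:100222949-100222998 in exon 9 of *Naip5*), with the 4 bases that differ in capitals. A read that ends before the first capital could come from either gene, and the sources used here do not say how such reads were counted.
Naip2: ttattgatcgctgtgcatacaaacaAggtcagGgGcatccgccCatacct
Naip5: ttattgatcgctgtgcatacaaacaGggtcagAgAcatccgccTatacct

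Promoters are shown for 4 of the 5 members called in Cb that held a motif match (*Naip5*, with 1 match 218 bases before a RefSeq start that lies 1013 bases from the GENCODE start, is not shown), since genes that move together invite a look at shared motifs. They are the 250 bases before the transcription start in RefSeq (GRCm38.p6), which gave entries for 9 of the 10 genes, with none for *Gsdmd*. Capitals mark matches on either strand to GGG, 5 bases of any kind and CC (bound by NF-kB) or GAGGAAGT (bound by PU.1, the factor that specifies myeloid cells), and GAAA, 2 bases of any kind and GAAA (bound by interferon regulatory factors) was searched as well. The first has a match in 45.8% of the 32851 promoters of this length, the second in 2.44% and the third in 2.98%. *Aim2* and *Pycard* each held 1 PU.1 match, 113 bases before the start and, on the opposite strand, 44 bases before it.
Aim2 (chr1:173420354-173420603, plus strand): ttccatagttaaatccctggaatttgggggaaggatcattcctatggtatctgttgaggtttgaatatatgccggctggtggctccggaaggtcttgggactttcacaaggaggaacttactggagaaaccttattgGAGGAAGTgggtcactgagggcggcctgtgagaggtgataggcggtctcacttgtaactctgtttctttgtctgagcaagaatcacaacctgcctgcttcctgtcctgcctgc
Pycard (chr7:127993868-127994117, minus strand): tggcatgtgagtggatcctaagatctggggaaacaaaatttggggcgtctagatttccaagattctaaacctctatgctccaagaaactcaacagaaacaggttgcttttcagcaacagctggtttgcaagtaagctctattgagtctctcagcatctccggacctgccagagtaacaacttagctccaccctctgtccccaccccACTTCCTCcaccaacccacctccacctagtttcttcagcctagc
Nlrp3 (chr11:59541319-59541568, plus strand): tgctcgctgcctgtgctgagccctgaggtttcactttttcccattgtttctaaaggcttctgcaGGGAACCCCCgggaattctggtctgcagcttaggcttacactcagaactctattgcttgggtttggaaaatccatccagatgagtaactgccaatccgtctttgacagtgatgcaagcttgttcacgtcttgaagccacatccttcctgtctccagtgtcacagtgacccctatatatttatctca
Casp4 (chr9:5308599-5308848, plus strand): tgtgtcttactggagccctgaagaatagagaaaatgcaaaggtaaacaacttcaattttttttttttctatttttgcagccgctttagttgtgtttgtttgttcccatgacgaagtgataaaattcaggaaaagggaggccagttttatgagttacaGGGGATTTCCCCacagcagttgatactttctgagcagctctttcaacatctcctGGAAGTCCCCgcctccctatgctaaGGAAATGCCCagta

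*Casp4* held 6 NF-kB matches, several of them overlapping, and 3 or more are found in 13.6% of all promoters. The *Nlrp3* window shown held 1 stretch that matches the loose NF-kB pattern on both strands. *Nlrp3* has 2 RefSeq entries, and the other (chr11:59542436-59542685), whose start lies 1118 bases from the GENCODE start, held no match to any of the 3 motifs. *Casp4* also has 2 entries, with 6 matches each. The RefSeq start of *Aim2* lies 69725 bases from the GENCODE start of the gene. *Casp1* and *Naip5* had 1 NF-kB match each, *Il18*, *Panx1* and *Naip2* had no match to any of the 3 motifs, and no interferon motif was present in any of the 9. These are matches of letters and say nothing of binding in these brains.

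In Cb, 8 of the 10 inflammasome genes were upregulated in T, against 8.54% of the 16382 genes tested that were called higher. That count includes *Nlrp3*, *Naip2* and *Casp4*, which passed the filter on low counts in Cb only through T. *Naip2* had the largest change, 4.97-fold, and the other sensors and *Pycard* lay between 2.03-fold and 2.7-fold. *Il18* passed the FDR limit below 1.5-fold, which made 9 of 10 at that limit (29.8% of genes), and *Casp1* did not pass. The same 9 had all T libraries above all N libraries, as did 27.7% of genes. In F/M, 3 of the 10 (*Nlrp3*, *Naip2* and *Casp4*) were upregulated, against 2.63% of 16665 genes, and 7 passed the FDR limit, against 12.8% of genes in that direction. All T libraries lay above all N libraries for those 7, and for 13.3% of genes. *Casp4* passed the filter on low counts in F/M only through T. The median log2 fold change of the 10 was 1.10 in Cb and 0.53 in F/M, beside 0.01 over all genes in each area. No member was called lower in T in either area.

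**Figure D1:**
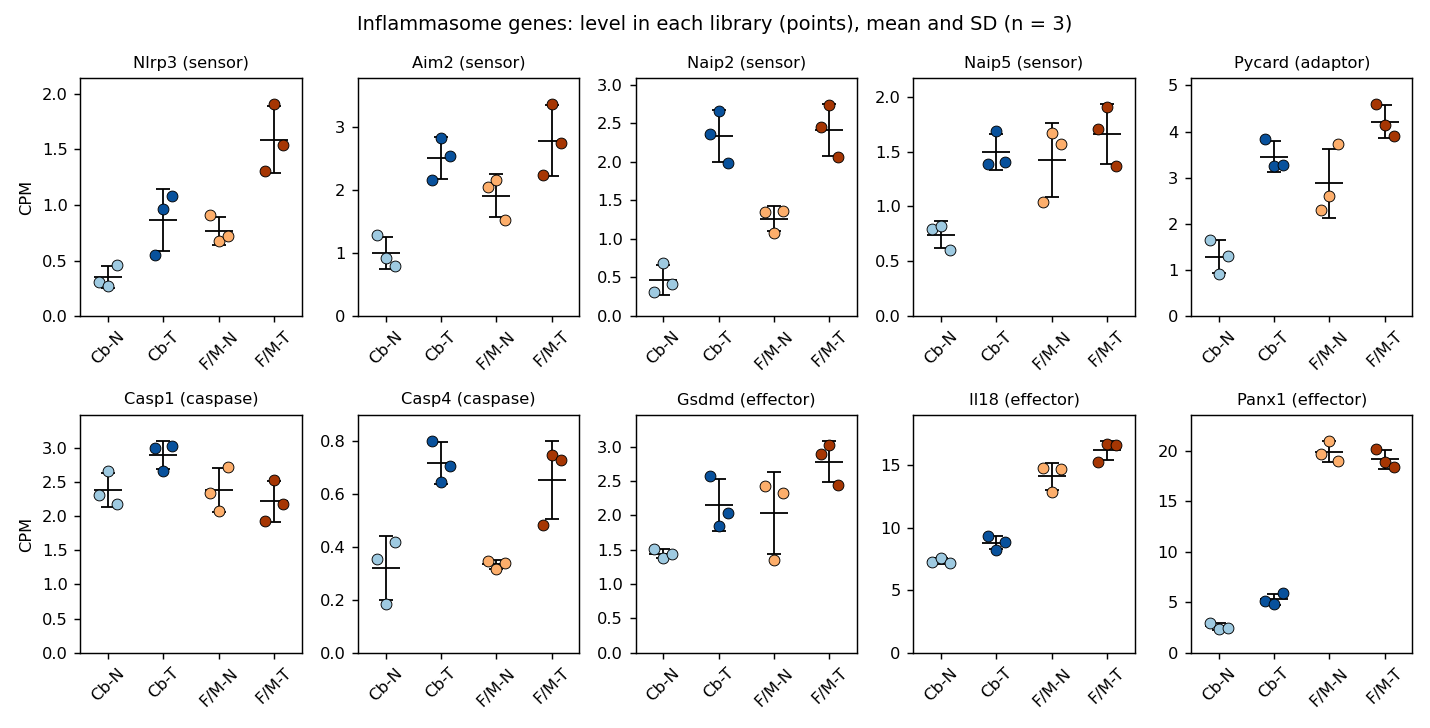
Level of each inflammasome gene in CPM (vertical axis, linear and starting at 0, with its own scale in each panel) in the 12 libraries (points), with the mean (long bar) and SD of 3 libraries in each group. *Nlrp3*, *Aim2*, *Naip2*, *Naip5*, *Pycard*, *Il18* and *Panx1* have all Cb-N libraries below all others, while the 4 groups of *Casp1* lie together between 1.93 and 3.03 CPM.

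Split by role, the 4 sensors had a median log2 fold change of 1.32 in Cb, all 4 being DEG, and 0.77 in F/M, where 2 were. *Pycard* followed with 1.43 and 0.58. The caspases had 0.73 and 0.46, which averages the unlike *Casp1* and *Casp4*, and the effectors had 0.59 and 0.23, with 2 of 3 being DEG in Cb and 0 of 3 in F/M, where *Gsdmd* and *Il18* passed the FDR limit alone. With so few genes in each role, these medians describe the lists and were not tested against each other.

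*Nlrp3* (chr11:59541568-59566956), the sensor that responds to potassium efflux and to lysosomal damage among other signals, was scarce. It had 0.311, 0.275 and 0.464 CPM in Cb-N and 0.549, 0.967 and 1.08 CPM in Cb-T, from 6 to 10 and 13 to 26 reads. In F/M it had 0.911, 0.676 and 0.72 CPM in N and 1.31, 1.91 and 1.54 CPM in T. N and T did not overlap in either area, and the Cb-T libraries covered the F/M-N range. The log2 fold change was 1.31 (SE 0.36, adjusted p = 0.0024) in Cb and 1.08 (SE 0.25, adjusted p = 0.0038) in F/M. These changes showed no detectable difference, with an estimate of 0.26 and a 95% interval of -0.66 to 1.17.

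*Aim2* (chr1:173350879-173466040) encodes a sensor of double-stranded DNA in the cytosol. Its Cb levels were 1.29, 0.918 and 0.789 CPM in N and 2.15, 2.82 and 2.53 CPM in T. All Cb-T libraries were thus clear of Cb-N, and the log2 fold change was 1.33 (SE 0.22, adjusted p = 1.4e-06). The F/M libraries had 2.04, 2.16 and 1.52 CPM in N and 2.23, 3.36 and 2.74 CPM in T, so that the lowest T library lay just above the highest N library. There the log2 fold change was 0.58 (SE 0.19, adjusted p = 0.035), a shade under 1.5-fold, and it crossed the limit without F/M-N library 1 (0.63) or 2 (0.68) or without F/M-T library 1 (0.71) or 3 (0.59).

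*Naip2* (chr13:100144063-100202092), which recognizes the rod protein of bacterial type III secretion systems and signals through *Nlrc4*, changed most. The 3 Cb-N libraries had 0.311, 0.688 and 0.418 CPM, from 7, 15 and 9 reads, and the 3 Cb-T libraries had 2.36, 2.66 and 1.99 CPM, from 56, 66 and 48 reads. F/M had 1.35, 1.08 and 1.36 CPM in N and 2.45, 2.73 and 2.06 CPM in T. The groups were well apart in both areas, and the T libraries of Cb and F/M covered nearly the same range. The log2 fold change was 2.31 (SE 0.27, 95% interval 1.78 to 2.85, adjusted p = 7.0e-10) in Cb and 0.97 (SE 0.20, 95% interval 0.56 to 1.37, adjusted p = 0.0014) in F/M.

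*Naip5* (chr13:100211739-100246323), the receptor for bacterial flagellin, had 0.799, 0.826 and 0.603 CPM in Cb-N and 1.39, 1.69 and 1.41 CPM in Cb-T. In F/M the groups overlapped, with 1.04, 1.67 and 1.57 CPM in N and 1.71, 1.91 and 1.37 CPM in T. It was a DEG in Cb, with a log2 fold change of 1.02 (SE 0.26, adjusted p = 8.6e-04), while the F/M value was 0.26 (SE 0.22, adjusted p = 0.45). Because the copies share sequence, the counts of *Naip1*, *Naip2*, *Naip5* and *Naip6* were also summed, a step added after the data were seen. The sum, which includes *Naip2*, called by itself in both areas, rose by a log2 fold change of 1.41 (SE 0.16, adjusted p = 3.0e-10) in Cb and 0.65 (SE 0.13, adjusted p = 0.0016) in F/M. *Nlrc4*, the partner these receptors need, had 0 to 9 reads in a library and was not tested.

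*Pycard* (chr7:127989708-127993867) encodes ASC, the adaptor that joins sensors to caspase-1. It had 1.64, 0.918 and 1.3 CPM in Cb-N against 3.84, 3.26 and 3.27 CPM in Cb-T, and 2.3, 2.61 and 3.73 CPM in F/M-N against 4.6, 4.14 and 3.9 CPM in F/M-T. N and T did not overlap in either area, though F/M-N library 3 came close to F/M-T. The log2 fold change was 1.43 (SE 0.19, adjusted p = 2.3e-08) in Cb and 0.58 (SE 0.16, adjusted p = 0.015) in F/M, where the gene became a DEG without F/M-N library 3 (0.81, adjusted p = 5.2e-04), F/M-T library 2 (0.59) or F/M-T library 3 (0.63). The antisense transcript Gm45205 overlaps 12.8% of its exonic bases and had 3 to 15 counts in a library. *Pycard* lies 22.2 Mb from *Tpp1* on chromosome 7.

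*Casp1* (chr9:5298517-5307265) and *Casp4* (chr9:5308828-5336783) are neighbours, 1562 bases apart. *Casp1*, the protease that matures both interleukins, had 2.31, 2.66 and 2.18 CPM in Cb-N and 3, 2.66 and 3.03 CPM in Cb-T. In F/M it had 2.34, 2.07 and 2.71 CPM in N and 1.93, 2.53 and 2.18 CPM in T. The groups met in Cb and overlapped in F/M. Neither difference passed the test, at a log2 fold change of 0.29 (95% interval -0.04 to 0.62, adjusted p = 0.13) in Cb and -0.07 (95% interval -0.44 to 0.30, adjusted p = 0.82) in F/M and the Cb interval still includes 1.5-fold.

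Reads of *Casp4* were few: 8, 4 and 9 in Cb-N against 19, 16 and 17 in Cb-T, and 8, 7 and 8 in F/M-N against 11, 18 and 17 in F/M-T. As levels these were 0.355, 0.184 and 0.418 CPM against 0.802, 0.645 and 0.705 CPM in Cb, and 0.347, 0.315 and 0.339 CPM against 0.482, 0.746 and 0.728 CPM in F/M. Both areas had all T libraries above all N libraries and nearly equal levels. The log2 fold change was 1.17 (SE 0.38, adjusted p = 0.0087) in Cb and 0.99 (SE 0.36, adjusted p = 0.055) in F/M. The F/M call was lost without any 1 of F/M-N libraries 1 (adjusted p = 0.12), 2 (0.14) and 3 (0.10) or F/M-T libraries 2 (0.16) and 3 (0.17).

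*Gsdmd* (chr15:75862327-75867408) encodes the pore-forming gasdermin D. Levels in Cb were 1.51, 1.38 and 1.44 CPM in N and 2.57, 1.85 and 2.03 CPM in T, a small step without overlap. The F/M libraries had 2.43, 1.35 and 2.33 CPM in N and 2.89, 3.02 and 2.44 CPM in T, so that the closest N and T libraries nearly met. In Cb the log2 fold change of 0.59 (SE 0.20, adjusted p = 0.013) sat at the 1.5-fold limit. It fell under a limit without Cb-N library 2 (0.55, adjusted p = 0.05), Cb-N library 3 (0.58) or Cb-T library 1 (0.44, adjusted p = 0.10), and with DESeq2 size factors, DESeq2's Wald test, limma-voom or the fit of all 12 libraries. In F/M it was 0.48 (SE 0.20, adjusted p = 0.091), which passed the FDR limit alone and reached 1.5-fold without F/M-N library 1 (0.62) or 3 (0.59). Without F/M-N library 2, the lowest of the N libraries, it was 0.26 (adjusted p = 0.38).

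*Il18* (chr9:50554827-50581840) encodes interleukin-18, a cytokine that is stored as a precursor. It had 7.24, 7.62 and 7.15 CPM in Cb-N and 9.33, 8.26 and 8.83 CPM in Cb-T, and 14.8, 12.9 and 14.7 CPM in F/M-N and 15.3, 16.7 and 16.6 CPM in F/M-T. No T library fell within the N range of its area, but the steps were small beside the gap between Cb and F/M. T exceeded N by a log2 fold change of 0.28 (SE 0.095, 95% interval 0.08 to 0.47, adjusted p = 0.014) in Cb and 0.23 (SE 0.073, 95% interval 0.08 to 0.38, adjusted p = 0.03) in F/M. Both passed the FDR limit and both intervals ended below 1.5-fold.

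*Panx1* (chr9:15002128-15045478) encodes a membrane channel that releases ATP and is expressed by neurons as well as glia. The Cb libraries had 2.97, 2.39 and 2.46 CPM in N and 5.15, 4.87 and 5.89 CPM in T, whereas F/M had 19.7, 21 and 19 CPM in N and 20.2, 18.9 and 18.4 CPM in T. Cb-T was clear of Cb-N yet far below F/M, and the F/M groups overlapped. The log2 fold change was 1.03 (SE 0.14, adjusted p = 3.8e-08) in Cb and -0.02 (SE 0.064, 95% interval -0.15 to 0.11, adjusted p = 0.85) in F/M. *Panx1* belongs to 810 genes tested in Cb whose F/M-N level was at least 4 times that of Cb-N. Of these, 60.1% were called higher in Cb-T than Cb-N, against 5.86% of the other 15572 genes. The 2 comparisons share the Cb-N libraries, and the part of this wider pattern in the result for *Panx1* was not tested.

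**Figure D2:**
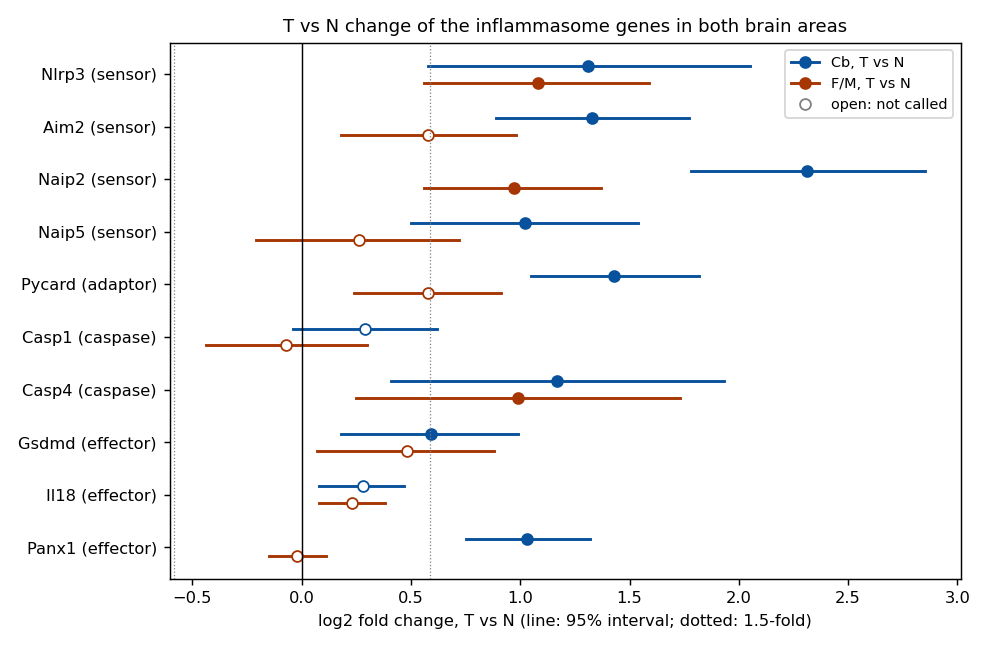
Log2 fold change of T vs N for each inflammasome gene in Cb (blue) and F/M (brown), on a log2 axis with 95% intervals as lines and dotted lines at 1.5-fold; filled points were called. *Naip2* in Cb lies farthest right at 2.31, and *Casp1* and *Panx1* in F/M lie at -0.07 and -0.02.

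Whether T vs N changes differed between the areas was tested by the interaction over all 12 libraries. 5 of the 10 genes had a larger change in Cb, against 6.41% of 17482 genes called in that direction. The difference in log2 fold change was 1.37 for *Naip2* (SE 0.35, adjusted p = 0.0045), 1.07 for *Panx1* (SE 0.15, adjusted p = 1.6e-06) and 0.88 for *Pycard* (SE 0.26, adjusted p = 0.016), and these calls held under every alternative run. For *Aim2* it was 0.77 (adjusted p = 0.065) and for *Naip5* 0.78 (adjusted p = 0.097). The *Aim2* call was lost without any 1 of 7 libraries (F/M-N libraries 1 and 2, F/M-T library 1, Cb-N libraries 2 and 3, Cb-T libraries 2 and 3), at adjusted p between 0.12 and 0.17, and with DESeq2's Wald test (0.75, adjusted p = 0.13), and that of *Naip5* in 14 of 19 alternatives. The summed *Naip* counts gave 0.78 (SE 0.21, adjusted p = 0.0074), but they include *Naip2*, called by itself, and cannot speak for *Naip5*. No difference was detected for *Casp1* (0.38, 95% interval -0.09 to 0.85), *Casp4* (0.20, -0.88 to 1.27), *Gsdmd* (0.13, -0.45 to 0.71) and *Il18* (0.07, -0.17 to 0.30), intervals which for all but *Il18* include a 1.5-fold difference. The microglial markers had larger changes in Cb as well, 18 of 20 being called.

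Among wild type mice, the inflammasome genes were mostly lower in Cb than in F/M. 7 of the 10 were called lower in Cb-N, against 23.2% of 17482 genes. *Panx1* was lower by 7.61-fold (log2 fold change -2.93, SE 0.10, adjusted p = 1.1e-21), and *Naip2* by 2.66-fold, *Pycard* by 2.23-fold, *Nlrp3* by 2.19-fold, *Il18* by 1.93-fold, *Naip5* by 1.91-fold and *Aim2* by 1.9-fold. *Casp1* (0.00, 95% interval -0.34 to 0.34) and *Casp4* (-0.07, 95% interval -0.94 to 0.81) showed no detectable difference, although the interval of *Casp4* is wide. *Gsdmd* passed the FDR limit alone (-0.50, adjusted p = 0.037) and was called without F/M-N library 2 (-0.72, adjusted p = 0.0025). All 20 microglial markers were called lower in Cb-N as well.

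In T mice, 3 of the 10 were called lower in Cb, against 18.9% of genes: *Panx1* (log2 fold change -1.85, adjusted p = 2.2e-18), *Il18* (-0.88, adjusted p = 1.5e-11) and *Nlrp3* (-0.87, adjusted p = 0.0029). *Aim2* (-0.15, 95% interval -0.51 to 0.21), *Naip2* (-0.05, -0.41 to 0.32) and *Naip5* (-0.15, -0.58 to 0.28) showed no detectable gap between areas in T mice. *Pycard* at -0.28 (adjusted p = 0.099) and *Casp1* at 0.38 (adjusted p = 0.033) passed the FDR limit in opposite directions, and *Gsdmd* at -0.37 (adjusted p = 0.066) was lower at that limit too. Of the 20 microglial markers, 8 were called lower in Cb-T than in F/M-T, with a median log2 fold change of -0.41. The comparison in T mice shares its libraries with the T vs N comparisons, so that the values stand side by side and are no separate evidence.

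**Figure D3:**
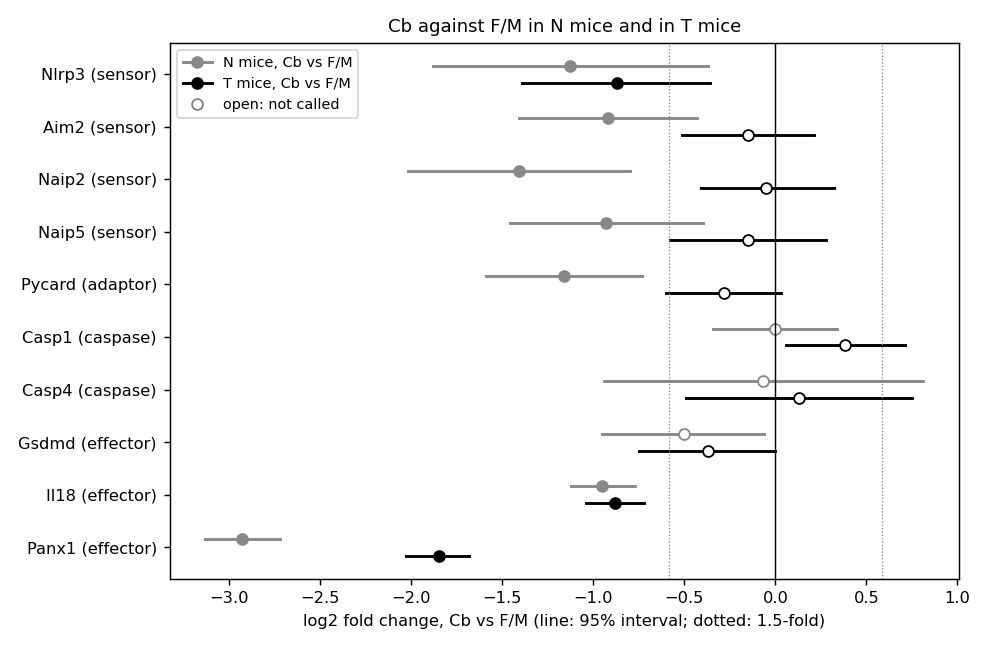
Log2 fold change of Cb vs F/M for each inflammasome gene among N mice (grey) and among T mice (black), with 95% intervals as lines and dotted lines at 1.5-fold; filled points were called. In N mice *Naip2* lies at -1.41 and in T mice at -0.05, while *Il18* lies at -0.95 and -0.88.

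Exon length was taken as all bases annotated as exon in any transcript of a gene, so the order below also depends on annotation. *Pycard*, for one, has 3800 such bases in 3 merged exons. Scaled to this length, the order of levels was led by *Il18* in each group, with 7.11, 8.54, 13.7 and 15.7 CPM per kb of exon in Cb-N, Cb-T, F/M-N and F/M-T. *Casp1* came next in Cb-N (1.59 ± 0.166 CPM per kb, SD, n = 3) and Cb-T (1.93 ± 0.136). In F/M that place was held by *Panx1*, at 3.30 ± 0.171 CPM per kb in N and 3.18 ± 0.154 in T, ahead of *Casp1* at 1.59 and 1.48. The middle of the Cb-N order was *Gsdmd* (0.606), *Panx1* (0.432), *Pycard* (0.339) and *Aim2* (0.285), of which *Panx1*, *Pycard* and *Aim2* lay within an SD of their neighbours. *Naip2* (0.0974), *Nlrp3* (0.0863) and *Casp4* (0.0859) were at the bottom of Cb-N and could not be ordered against their SDs of 0.0247 to 0.0401. In Cb-T the neighbours *Pycard* (0.910), *Gsdmd* (0.906) and *Panx1* (0.879) were likewise inseparable.

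Because microglial markers moved with these genes, each gene was also expressed in each library as a percentage of the geometric mean CPM of the 20 markers, which was 7.8 ± 0.18 in Cb-N, 27.1 ± 0.446 in Cb-T, 24.3 ± 0.603 in F/M-N and 38.2 ± 0.586 in F/M-T (SD, n = 3). This is a description with no test. Relative to this mean no gene had all T libraries above all N libraries in either area, but that rests on the choice of markers, which changed unequally. *Casp1* ranged from 27.4 to 33.8% (Cb-N) and from 9.79 to 11.2% (Cb-T), and from 8.62 to 10.8% (F/M-N) and from 4.99 to 6.73% (F/M-T). *Il18* ranged from 89.9 to 96.9% (Cb-N) and from 30.4 to 35% (Cb-T). Along with *Casp1* and *Il18*, all T libraries were below all N libraries for *Naip5*, *Gsdmd* and *Panx1* in Cb and for *Panx1* in F/M.

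The ranges of N and T overlapped on this scale for *Nlrp3*, *Aim2*, *Naip2*, *Pycard* and *Casp4* in both areas. *Naip2* was the gene whose mean share was larger in T in Cb, at 6.03 ± 2.43% in N and 8.62 ± 1.3% in T, and it was 5.19 ± 0.606% and 6.32 ± 0.974% in F/M. *Nlrp3* had 4.48 ± 1.22% and 3.17 ± 0.984% in Cb and 3.17 ± 0.563% and 4.16 ± 0.845% in F/M. *Pycard* had 16.5 ± 4.97% and 12.8 ± 1.42% in Cb and 11.8 ± 2.76% and 11 ± 0.907% in F/M. 

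With each marker alone as the denominator, a choice made after seeing the data, the order of N and T depended on the marker. Relative to *Tmem119*, one of the 3 markers that changed least in Cb (log2 fold change 0.31, beside 0.50 for *P2ry12* and 0.58 for *Sall1*), all T libraries lay above all N libraries in Cb for 7 of the 10 genes (all but *Casp1*, *Gsdmd* and *Il18*), and no gene had all T below all N. *Naip2* had all T above all N in Cb for 8 of the 20 markers and all T below for 1, while *Nlrp3* had this for 1 and 8 markers and *Pycard* for 4 and 8. *Casp1* and *Il18* had all T below all N in Cb for 18 of the 20 markers each, and all T above for 0. In F/M, all T lay above all N for 9 markers with *Nlrp3* and *Casp4* and for 10 with *Naip2*, and *Casp1* and *Panx1* lay below for 16 and 17. How much of the changes in CPM goes with the number of microglia was not tested.

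**Figure D4:**
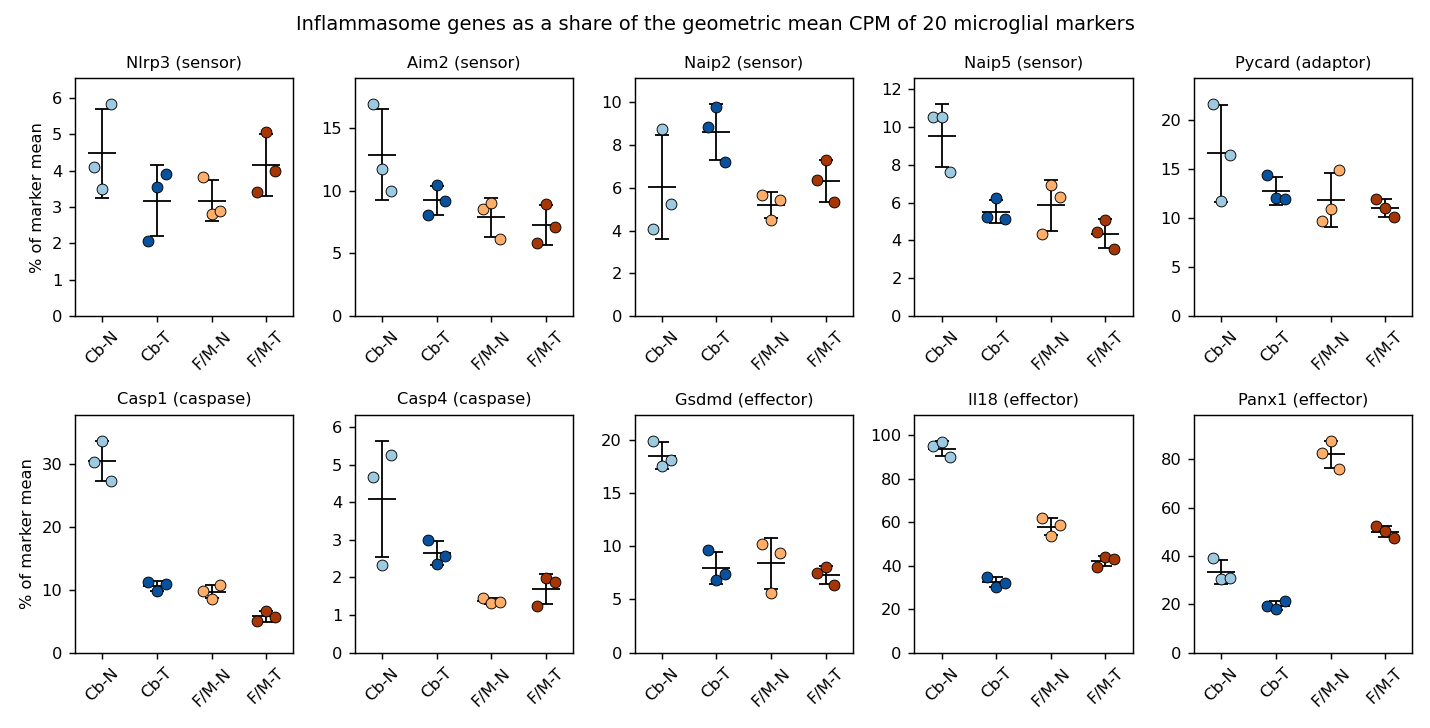
Level of each inflammasome gene as a percentage of the geometric mean CPM of 20 microglial markers in the same library (vertical axis, starting at 0, with its own scale in each panel), with the mean and SD of 3 libraries in each group. Means are highest in Cb-N for all genes but *Naip2* and *Panx1*. The ranges of Cb-N and Cb-T overlap for *Naip2*, as they do for *Nlrp3*, *Aim2*, *Pycard* and *Casp4*.

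A further 38 genes of the inflammasome pathway were listed by role, and 27 were tested in each area. In Cb 8 were called higher and 1 lower, and in F/M 6 and 1, beside 8.54% and 2.66% of all genes in Cb and 2.63% and 0.858% in F/M. Their median log2 fold change was 0.25 in both areas. 6 genes were called higher in both.

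Those 6 include *Gbp2*, *Gbp5* and *Irgm1*, which encode interferon-inducible GTPases. *Gbp2* had 3.28, 4.45 and 4.59 CPM in Cb-N and 9.83, 10.2 and 10.2 CPM in Cb-T, and 4.6, 4.37 and 3.47 CPM in F/M-N and 9.07, 9.03 and 7.5 CPM in F/M-T. Both areas were clearly separated by genotype, at a log2 fold change of 1.31 (adjusted p = 1.3e-13) and 1.07 (adjusted p = 1.8e-06). *Irgm1* changed by 0.86 (adjusted p = 1.8e-11) and 1.03 (adjusted p = 3.7e-09), and *Gbp5* by 0.60 (adjusted p = 3.9e-04) and 0.83 (adjusted p = 1.1e-04). *Trim30a*, which restrains *Nlrp3* signals, changed by 0.74 (adjusted p = 6.0e-06) and 1.04 (adjusted p = 6.6e-06) and lies 1280 kb from *Tpp1* on chromosome 7. For none of these 4 did the change differ detectably between the areas (*Gbp2* 0.26, *Irgm1* -0.15, *Gbp5* -0.21, *Trim30a* -0.29, adjusted p 0.30 to 0.47).

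The remaining genes called in both areas were scarce, and in Cb they passed the filter on low counts only through T. *Il1a*, encoding the alarm cytokine interleukin-1 alpha, had 6 reads over the 3 Cb-N libraries and 47 over Cb-T, a ratio of 7.1 with a counting interval of 3.03 to 20.3 (exact binomial, 95%). In F/M it had 0.608, 0.541 and 0.678 CPM in N and 1.14, 0.828 and 1.33 CPM in T. It changed more in Cb, with a difference in log2 fold change of 1.92 (adjusted p = 0.02). *Nlrp1b*, a sensor cleaved by anthrax lethal factor, had 11 reads in Cb-N and 53 in Cb-T, a ratio of 4.37 (2.26 to 9.28), and a log2 fold change of 1.33 in F/M (adjusted p = 0.0061).

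Calls in 1 area only numbered 4, and being called in 1 area does not show a difference between areas. *Casp8*, an apoptotic caspase that can also cut gasdermin D, was called in Cb (0.63, adjusted p = 0.0037) and passed the FDR limit alone in F/M (0.40, adjusted p = 0.081). *Naip6* was called in Cb (0.76, adjusted p = 0.053), with 21.5% of its 50-base stretches found in other genes. *Nlrp10* fell in Cb (-0.68, adjusted p = 7.4e-05) and lies 3.17 Mb from *Tpp1*. It was not tested in F/M, where it had 9 to 17 reads in N libraries and 4 to 9 in T libraries. *Nlrp6* fell in F/M (-0.70, adjusted p = 0.064), with 0.61 in Cb (adjusted p = 0.14), and its changes differed by 1.33 (adjusted p = 0.019).

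Of the pathway genes that were not called, those with the highest CPM were *Panx2*, *Nek7*, *Il1rap*, *Txnip* and *Nfkb1*. *Nek7*, the kinase that *Nlrp3* needs, passed the FDR limit in Cb (0.44, SE 0.041, adjusted p = 2.3e-12) and in F/M (0.10, SE 0.039, adjusted p = 0.082). *Txnip*, which binds thioredoxin, fell in both, by 0.52 and 0.48 on the log2 scale (adjusted p = 6.0e-13 and 8.2e-07). *Nfkb1*, an NF-kB subunit, had 0.04 (95% interval -0.06 to 0.13) and 0.03 (-0.10 to 0.16). *Panx2* had -0.11 (adjusted p = 0.0045) in Cb and 0.03 in F/M, and *Il1rap* 0.10 and -0.10. *Il1b*, the best known substrate of caspase-1, had 0 to 8 reads in a library and *Il1rn*, its antagonist, 0 to 9, and neither was tested.

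**Figure D5:**
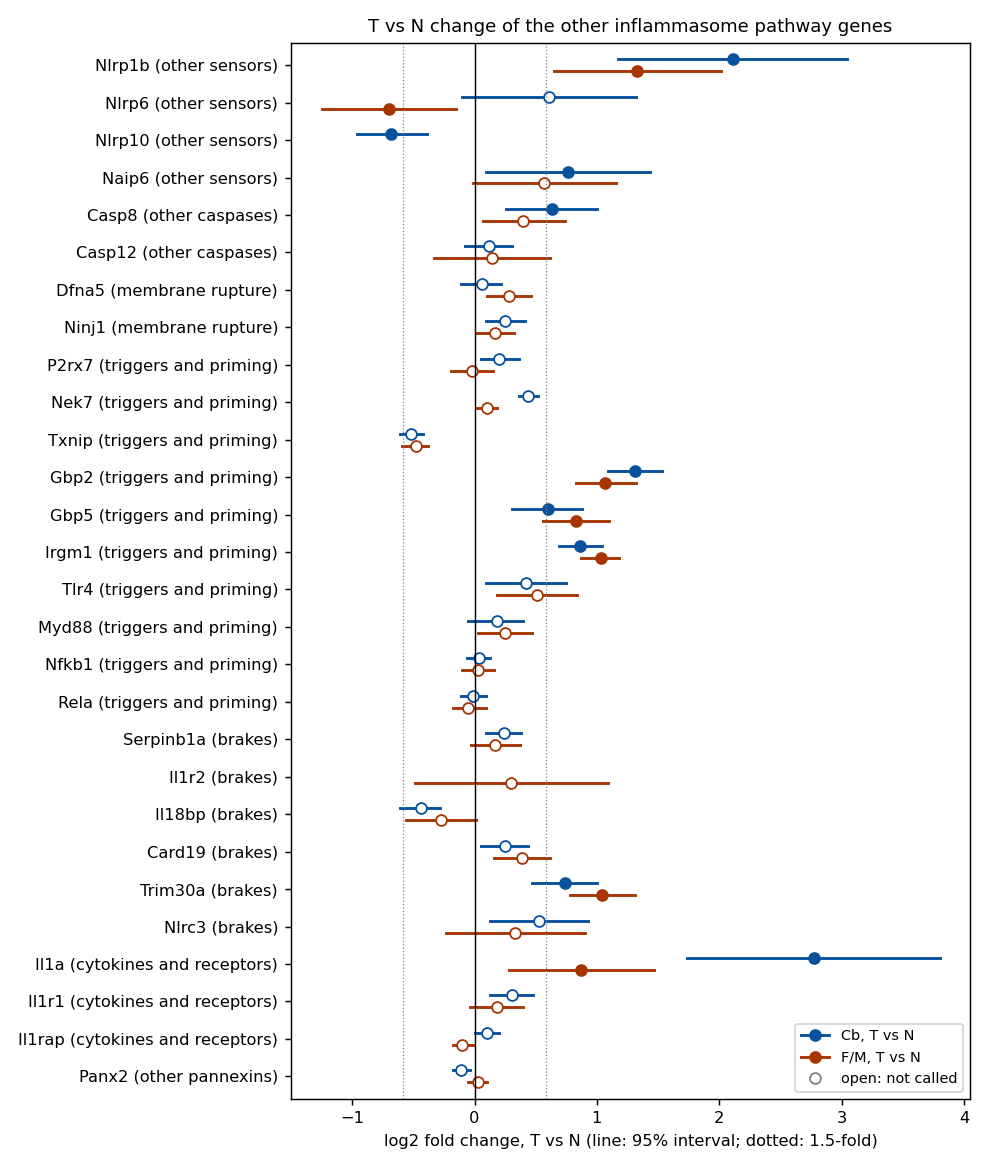
Log2 fold change of T vs N for the other inflammasome pathway genes tested in Cb (blue) or F/M (brown), with 95% intervals as lines and dotted lines at 1.5-fold; filled points were called, and *Dfna5* is the symbol of *Gsdme* in the files. *Il1a* in Cb lies farthest right at 2.77, and *Gbp2*, *Gbp5*, *Irgm1* and *Trim30a* have filled points in both areas.

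Likeness of pattern was measured as Pearson's r of log2 CPM over the 12 libraries, which fall into 4 groups and so share area and genotype. The genes most like *Naip2* were *Samsn1* (0.984), *Ptpn6* and *Ly86* (both 0.978), and those most like *Pycard* were *Hk3* (0.981), *Pgf* (0.975) and *Cyb5rl* (0.967). *Aim2* was nearest to *Ikbkg* (0.977), *Hacd4* (0.956) and *Csf3r* (0.954), and *Nlrp3* to 1110032A03Rik (0.965), *Acot13* (0.954) and *Irf5* (0.953). *Naip5* had *Bche* (0.952), *Gadl1* (0.95) and *Fbxo6* (0.946), and *Casp4* had *Bmpr1b* (0.943), *Cd52* (0.927) and *S100a6* (0.924). *Gsdmd* had *Coprs* (0.936), *Ebi3* (0.92) and *Set* (0.909), and *Casp1* had the lowest values of all, with *Tex14* (0.871), *Gm42783* (0.862) and *2010001A14Rik* (0.857). *Il18* was nearest to *Dusp22* (0.991), *Commd10* and *Impact* (both 0.99), and *Panx1* to *Gm9866*, *Camk2g* and *Crtac1* (all 0.998).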

How the data were processed

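Single-end 50-base reads of poly(A)-selected RNA (TruSeq stranded mRNA kit) were aligned by the authors with STAR to mm10 (GRCm38) and counted per gene with featureCounts (Rsubread 1.26.1), and the deposited tables hold raw counts, 1 per library. Strand setting, multimapping reads and annotation release are not given in the sources used here. In R 4.3.3, edgeR 4.0.16 (filterByExpr with a minimum count of 10 and total of 15, TMM, quasi-likelihood test, Benjamini-Hochberg over all genes tested) was run on the 6 libraries of each area, and on all 12 for the interaction and the comparisons between areas. Groups came from sample titles. Samples of a group were separate libraries (chi-square per degree of freedom 1.27 to 3.37). Alternatives used DESeq2 1.42.0 and limma 3.58.1, and the edgeR fits of Cb, F/M and the interaction were also run on simulated counts with known changes. The outcome of those simulated runs is not reported here. Gene positions and exon lengths came from GENCODE vM21. Members and gene lists were chosen with earlier results of these data known; the rule named *Tpp1*, all members, each pathway gene called in at least 1 area, the 5 uncalled with the highest CPM, and the 3 genes most like each member. Further cell-type lists had, in T vs N in Cb, 2 of 10 (astrocytes), 1 of 8 (oligodendrocytes), 0 of 8 (endothelial cells), 0 of 8 (neurons) and 0 of 3 (neutrophils) tested genes called higher, and 9, 8, 5, 3 and 0 higher by FDR alone, with 4 neuronal genes and 1 astrocyte gene lower. In F/M these were 1 of 10, 0 of 8, 0 of 8, 0 of 8 and 0 of 1 called and 8, 1, 3, 0 and 0 by FDR, with 3 neuronal genes and 1 oligodendrocyte gene lower. Their part in the results was not tested.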

Additional observations from a re-analysis of the deposited data

Results flagged for a closer look

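The T vs N change differed between the areas for 5 of the 10 inflammasome genes by the interaction test, which is what brought them here. Cb minus F/M, the difference in log2 fold change was 1.37 for *Naip2*, 1.07 for *Panx1*, 0.88 for *Pycard*, 0.78 for *Naip5* and 0.77 for *Aim2*. In each case the Cb-N libraries were the lowest of the 4 groups, as they also were for *Nlrp3* and *Il18*, which were not called. The microglial markers (18 of 20 called) moved in the same direction, and their part in these 5 differences was not tested.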

How the results depend on the processing

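Of 810 values of the 10 genes under alternatives, 745 kept their side of the threshold with no turn of sign at 2 decimals, 35 lost the call, 17 gained it and 13 turned sign, each without 1 library and each of a value not called in either fit. Leaving out 1 library, these log2 values ranged from -0.06 to 0.02 for *Panx1* and from -0.17 to 0.04 for *Casp1* in T vs N in F/M, from -0.08 to 0.43 for *Casp4*, from -0.07 to 0.35 for *Gsdmd* and from -0.03 to 0.13 for *Il18* in the interaction, from -0.30 to 0.21 for *Casp4* in Cb-N vs F/M-N, and from -0.29 to 0.01 for *Aim2*, from -0.15 to 0.05 for *Naip2* and from -0.04 to 0.24 for *Casp4* in Cb-T vs F/M-T. In Cb the calls of *Nlrp3*, *Aim2*, *Naip2*, *Naip5*, *Pycard*, *Casp4* and *Panx1*, and in F/M those of *Nlrp3* and *Naip2*, held under every alternative. Without the fold limit, 9442 genes passed in Cb, 4541 genes and 7 of the 10 members in F/M. The DESeq2 Wald test called 365 genes in F/M, against 581, and 3 members in the interaction, against 5, and gave *Casp4* in F/M no adjusted p. Leaving out 1 library at a time gave 1832 to 1986 genes in Cb, 498 to 632 in F/M and 1237 to 1359 in the interaction, and 7 to 8, 3 to 4 and 3 to 5 members. *Gsdmd* in Cb came to 0.58, 0.58, 0.57 and 0.57 with DESeq2 size factors, the Wald test, limma-voom and the fit of all 12 libraries, under the 1.5-fold limit. Where the cause of a lost call is not a smaller sample, the cause was not tested.

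Replicate numbers are shared across groups in the labels, but same-numbered libraries did not deviate together (correlations -0.016 to 0.062), and were not treated as pairs, which does not show whether they come from the same mouse. With the replicate block, 1834 genes were called in Cb, 607 in F/M and 1350 in the interaction, with 8, 3 and 5 members. A block within genotype gave 1346 genes and 5 members in the interaction. This block, the alternatives for Cb-T vs F/M-T and the summed *Naip* counts were chosen after seeing the data. Relative to *Tmem119*, *P2ry12* or *Sall1* alone, in place of the mean of 20 microglial markers, all T lay above all N for 7, 6 and 6 members in Cb and 7, 6 and 7 in F/M (0 and 0 with the mean), and below for 0, 0 and 2 in Cb and 0, 0 and 0 in F/M (5 and 3 with the mean). Depth limits *Casp4*, *Nlrp3*, *Nlrp1b* and *Il1a*, with 10 or fewer reads per Cb-N library.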
